A study of Pyrus communis with 12 samples.

Results

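Of the genes that the study annotated as ethylene response factors or as an AP2/ERF factor (ERFs for short), 5 were followed across the harvest series. These were 5 of 45217 genes in the count table: PCP002056 (ERF2), PCP015040 (ERF1), PCP011831 and PCP014930 (both named ERF) and PCP027843 (AP2/ERF). A further gene that the study annotated as an AP2 ethylene response factor, PCP016390, is not among the 5 and is set beside them below. The names rest on the study's similarity search against plant proteins, and the study picked the genes out of those that differed among these same libraries, so their calls are not independent evidence of a change. Flesh of pear (Pyrus communis) fruit of the cultivar Abate Fetel was sampled on the tree at 4 harvesting stages, H1 to H4, labelled as harvest weeks 1 to 4, with 3 biological replicates per stage and 12 libraries in all. All fruit came from the trees of one orchard and were untreated, and within each stage fruit of like chlorophyll absorbance were taken, so that date, fruit age and absorbance cannot be told apart in any comparison of stages. H2 and H3 were further apart in days after bloom than the other neighbouring stages. The labelled tissue was not checked against marker genes, since no marker of another tissue was fixed by identifier. In bulk flesh a higher level per cell and a larger share of cells that express a gene cannot be told apart.

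ERFs are transcription factors of the AP2/ERF superfamily, which bind DNA through a conserved AP2 domain and can raise or lower the transcription of their targets. Ethylene, a gaseous plant hormone, is made from ACC by ACC oxidase (ACO) after ACC synthase (ACS) has formed ACC, and it is sensed by membrane receptors such as ERS. The signal then passes through factors of the EIN3 type to ERF genes, and in a climacteric fruit such as pear the onset of ripening goes along with a burst of ethylene production.

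The libraries held 7776419 to 10675582 counts, and those of H4 were the deepest, with 9587843 to 10675582 counts against 7776419 to 9419007 in H1 to H3. Levels are given as CPM (reads of the gene relative to the size of its library, scaled by TMM, the trimmed mean of M values), and 3 counts in a library corresponded to 0.3 to 0.379 CPM. A gene was tested where it reached at least 1 CPM in at least 3 libraries, which 23155 genes did. A gene was called where the adjusted p of the edgeR quasi-likelihood test was under 0.05. The TMM factors were 0.938 to 0.967 in the H4 libraries and 1.0035 to 1.031 in the others. With TMM, 53.6% of the genes called in H4 relative to H3 were higher, and with scaling by total counts 32%. The shares were 52.4% and 35.4% for H4 relative to H2 and 52.5% and 39.1% for H4 relative to H1, while no call of an ERF gene changed with the scaling.

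The 5 genes did not share a course (plot of the levels by library). PCP002056 was higher in H2 and H4 than in H1 and H3, PCP015040 had most of its counts in H2 and none in H4, PCP011831 was at its lowest mean in H2 and at its highest in H4, PCP014930 had a higher mean at each later stage, and PCP027843 was found almost entirely in H4. Their counts were low. Apart from PCP002056, no ERF gene exceeded 57 counts in any library, and PCP015040 did not pass the filter, which left 4 genes for the test across all genes. Levels are not compared between the genes here, since no transcript lengths were used.

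**Figure D1:**
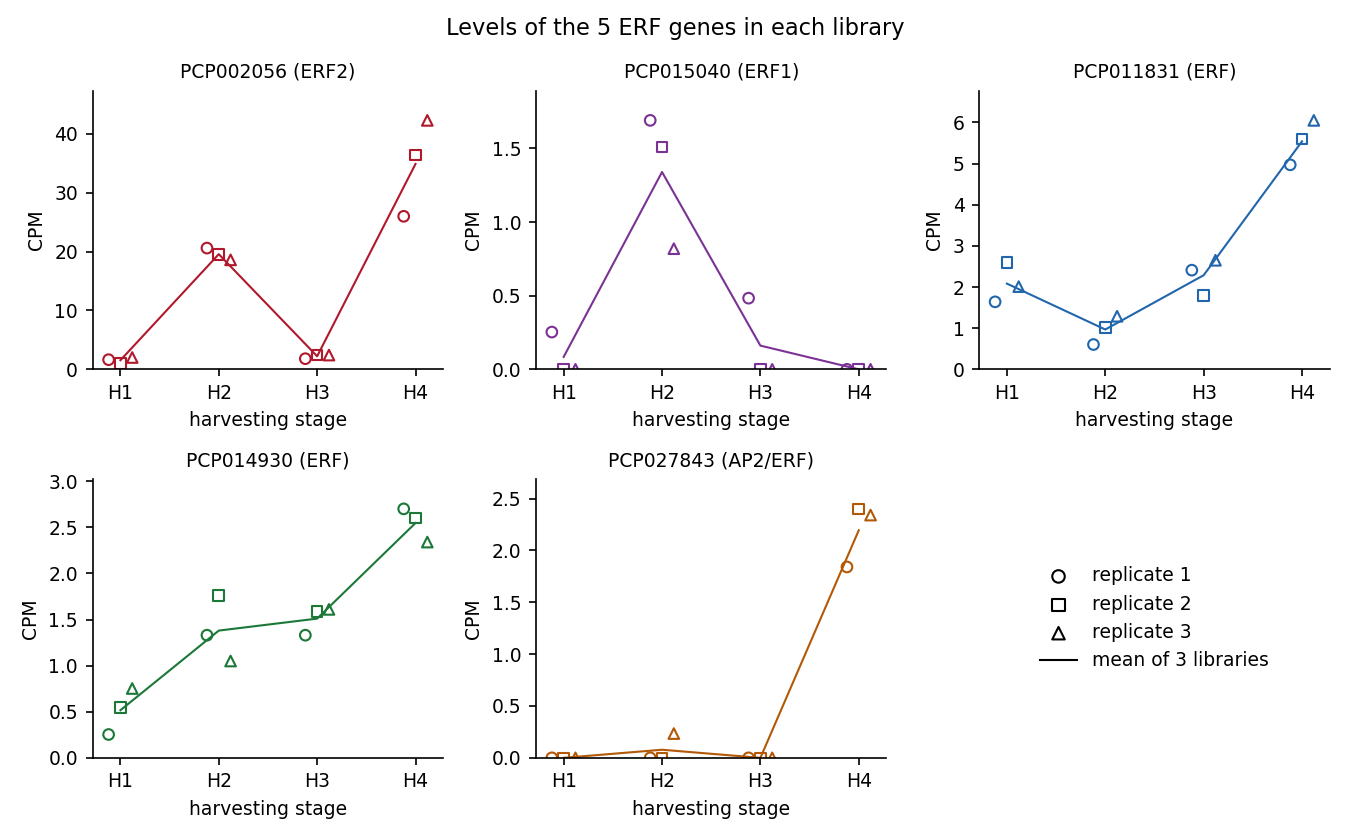
Level of each of the 5 ERF genes (CPM, linear axis from 0, a separate scale per panel) in each of the 12 libraries by harvesting stage. Symbols are the 3 replicates of a stage, shifted sideways to separate them, and the line joins the stage means. PCP002056 stands at 18.6 to 20.6 CPM in H2 and 26 to 42.3 CPM in H4, above every H1 and H3 library, while PCP027843 lies at 1.84 to 2.4 CPM in H4 and at 0.234 CPM or below in the other stages.

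In H2 relative to H1, 1 of the 4 tested ERF genes was called higher and none lower, beside 7.10% of all genes tested called in either direction (3.94% higher, 3.17% lower). In H3 relative to H2, 1 was called higher and 1 lower, beside 5.34% of all genes (2.98% higher, 2.36% lower). In H4 relative to H3, 3 were called higher and none lower, beside 20.5% of all genes (11.0% higher, 9.51% lower). Between stages further apart, none was called lower. In H3 relative to H1, 1 was called higher, beside 6.79% of all genes called higher and 5.18% lower. In H4 relative to H2 there were 3, beside 28.0% (14.7% higher, 13.3% lower), and in H4 relative to H1 all 4, beside 34.5% (18.1% higher, 16.4% lower). An F test over the 4 stages called all 4 of them, beside 34.0% of all genes tested. PCP027843 is counted in each of the comparisons with H4 and in the F test. It passed the filter through its H4 libraries alone, so it had to differ there and its calls are no support.

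PCP002056, the ERF2 of the study and one of its RT-qPCR candidates, alternated. It had 13, 9 and 16 counts in the H1 libraries (1.64, 0.977 and 2.01 CPM) and 171, 155 and 159 counts in the H2 libraries (20.6, 19.5 and 18.6 CPM). It had 15, 23 and 21 counts in the H3 libraries (1.81, 2.43 and 2.42 CPM) and 241, 364 and 398 counts in the H4 libraries (26, 36.4 and 42.3 CPM). Every H2 library lay above every H1 and H3 library, and every H4 library above every H2 library. The H1 and H3 libraries overlapped.

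The level of PCP002056 averaged 19.6 ± 1.01 CPM in H2 and 1.54 ± 0.522 CPM in H1 (SD, n = 3 each), a log2 fold change of 3.68 (SE 0.24, 95% interval 3.16 to 4.19, edgeR adjusted p = 3.5e-06) or 12.8-fold. This rise took rank 80 by size among the 23155 genes tested. In H3 it was back at 2.22 ± 0.357 CPM, against 19.6 ± 1.01 CPM in H2. The log2 fold change was -3.13 (SE 0.22, interval -3.61 to -2.64, edgeR adjusted p = 1.2e-05), 8.74-fold lower in H3, which was rank 84 among the falls. In H4 it reached 34.9 ± 8.22 CPM, against 2.22 ± 0.357 CPM in H3, a log2 fold change of 3.96 (SE 0.22, interval 3.49 to 4.43, edgeR adjusted p = 2.1e-07) or 15.6-fold, rank 74 among the rises.

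The order of the levels of PCP002056 was thus H4, H2, H3, H1. H4 exceeded H2 by 1.78-fold (log2 fold change 0.83, interval 0.46 to 1.21, edgeR adjusted p = 0.0029). H3 and H1 were not distinguished, with a log2 difference of 0.55 (interval -0.11 to 1.21, edgeR adjusted p = 0.31), which still allows a rise of up to 1.21 on the log2 scale. Over the whole series, H4 lay 22.8-fold above H1 (log2 fold change 4.51, SE 0.23, edgeR adjusted p = 3.2e-08).

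The calls higher, lower and higher over the 3 neighbouring steps were shared by 29 genes, PCP002056 among them, which is 0.125% of the genes tested. Only 3 of these genes had fitted steps of at least 4-fold each time. Those beside PCP002056, singled out after their values were seen, were PCP000537, with mean levels of 0.0843, 1.58, 0 and 0.522 CPM from H1 to H4, and PCP022688, with 0, 1.61, 0 and 1.08 CPM. Both were at 0 in all H3 libraries, where a fitted fold has no firm size, while PCP002056 had at least 9 counts in every library. Neighbouring steps share the libraries of the stage between them, so the 3 calls of a gene are not separate measurements.

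**Figure D2:**
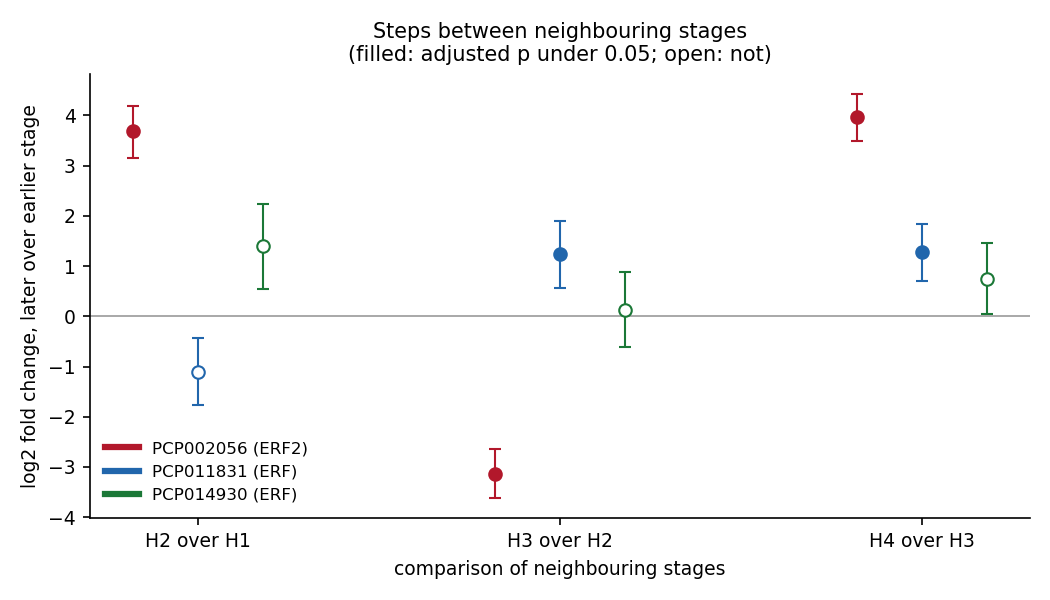
Log2 fold change (later over earlier stage) of the 3 ERF genes with counts in every stage, for each pair of neighbouring stages, with 95% intervals of the edgeR fit. Filled points have an adjusted p under 0.05. PCP002056 stands at 3.68, -3.13 and 3.96, PCP011831 at -1.10, 1.23 and 1.27, and PCP014930 at 1.39, 0.13 and 0.75.

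PCP015040, the ERF1 of the study and also an RT-qPCR candidate there, was a gene of H2. It had 2, 0 and 0 counts in the H1 libraries, 14, 12 and 7 in the H2 libraries (1.69, 1.51 and 0.819 CPM), 4, 0 and 0 in the H3 libraries, and 0 in each of the 3 H4 libraries, the deepest of the series. All H2 libraries lay above all the others. The level averaged 1.34 ± 0.459 CPM in H2 and 0.0843 ± 0.146 CPM in H1 (SD, n = 3 each).

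Summed over the 3 libraries of a stage, PCP015040 had 33 counts in H2 and 2 in H1, a ratio of 16.7 at equal depth (95% interval 4.28 to 144). H3 had 4 counts and H2 had 33, which put H2 8.8-fold above H3 (interval 3.13 to 34.2). These intervals cover counting error only, not the spread between replicates. In H4 the gene was at least 4.27-fold lower than in H2, taking 3 counts per library as the limit that a count of 0 allows. This and the later bounds of the kind take the mean of the higher stage without its error. With 2 libraries at 1 CPM or more PCP015040 stayed below the filter of the test across all genes. An exact permutation test of log2(CPM + 1) over all 369600 arrangements of the 12 libraries into 4 stages gave p = 0.018 for a difference anywhere, not adjusted. The smallest p this design allows is 6.5e-05 for values without ties. The libraries at 0 counts are tied, so the smallest p that PCP015040 could reach is larger. In an edgeR fit without the filter, over 30839 genes, the gene was called in H4 relative to H2 alone (adjusted p = 0.017), with adjusted p = 0.16 for H2 relative to H1 and 0.29 for H3 relative to H2. PCP015040 and PCP002056 were thus both higher in H2 than in H1 and H3 in every library, and at H4 they parted, with 0 counts of PCP015040 and 241 to 398 counts of PCP002056 in the same libraries.

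PCP011831, a further gene named ERF, ran through a low in H2. It had 13, 24 and 16 counts in the H1 libraries (1.64, 2.6 and 2.01 CPM), 5, 8 and 11 in the H2 libraries (0.603, 1.01 and 1.29 CPM), 20, 17 and 23 in the H3 libraries (2.41, 1.8 and 2.65 CPM) and 46, 56 and 57 in the H4 libraries (4.97, 5.6 and 6.05 CPM). Every H4 library lay above every other library, and every H2 library below every other, while H1 and H3 overlapped.

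The level of PCP011831 averaged 0.966 ± 0.344 CPM in H2 and 2.08 ± 0.485 CPM in H1 (SD, n = 3 each). This first step was not called, with a log2 difference of -1.10 (interval -1.77 to -0.43, edgeR adjusted p = 0.0504), just short of the threshold. It was called in H3 relative to H2, at 2.29 ± 0.441 CPM in H3 and 0.966 ± 0.344 CPM in H2 (log2 fold change 1.23, SE 0.30, edgeR adjusted p = 0.035) or 2.34-fold. That call was lost with DESeq2 (adjusted p = 0.099), with limma-voom (0.095), in a fit of the 6 libraries alone (0.11) and on leaving out any of 6 single libraries. Those were H2 replicate 1 (0.13), H2 replicate 2 (0.098), H3 replicate 1 (0.1), H3 replicate 3 (0.12), H4 replicate 2 and H4 replicate 3 (0.053 each).

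The last step of PCP011831 was firmer. H4 averaged 5.54 ± 0.544 CPM and H3 2.29 ± 0.441 CPM, a log2 fold change of 1.27 (SE 0.26, interval 0.71 to 1.84, edgeR adjusted p = 0.0041) or 2.42-fold, called in all 20 alternative fits. H4 lay 5.66-fold above H2 (edgeR adjusted p = 4.0e-05) and 2.63-fold above H1 (edgeR adjusted p = 0.0012). H3 and H1, neighbours in the order H4, H3, H1, H2, differed by 0.12 on the log2 scale (interval -0.48 to 0.73, edgeR adjusted p = 0.87). The calls not called, higher and higher were shared by 172 genes, or 0.743% of those tested. At the first step the intervals of PCP011831 and PCP002056 lay on opposite sides of 0, and the difference between the genes was not tested.

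PCP014930, also named ERF, had 2, 5 and 6 counts in the H1 libraries (0.253, 0.543 and 0.752 CPM), 11, 14 and 9 in the H2 libraries (1.33, 1.76 and 1.05 CPM), 11, 15 and 14 in the H3 libraries (1.33, 1.59 and 1.61 CPM) and 25, 26 and 22 in the H4 libraries (2.7, 2.6 and 2.34 CPM). The H1 libraries lay below, and the H4 libraries above, all the others, while H2 and H3 overlapped. None of the single steps was called.

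The steps of PCP014930 were 1.39 on the log2 scale in H2 relative to H1 (interval 0.54 to 2.24, edgeR adjusted p = 0.053), 0.13 in H3 relative to H2 (interval -0.61 to 0.88, edgeR adjusted p = 0.92) and 0.75 in H4 relative to H3 (interval 0.04 to 1.45, edgeR adjusted p = 0.13). The missed threshold does not show that the neighbouring stages were alike. Over the longer spans the gene was called. H4 averaged 2.55 ± 0.188 CPM and H1 0.516 ± 0.251 CPM (SD, n = 3 each), a log2 fold change of 2.27 (SE 0.37, interval 1.46 to 3.08, edgeR adjusted p = 4.4e-04) or 4.82-fold. H3 averaged 1.51 ± 0.159 CPM and H1 0.516 ± 0.251 CPM, a log2 fold change of 1.52 (edgeR adjusted p = 0.022), which was lost with DESeq2 (0.074), in the fit of the 6 libraries alone (0.11) and without H1 replicate 1 (0.069), H1 replicate 2 (0.052), H3 replicate 2 (0.06) or H3 replicate 3 (0.064). H4 relative to H2 gave 0.88 (interval 0.16 to 1.59, edgeR adjusted p = 0.066), and was called with limma-voom (0.029) and without H1 replicate 1 (0.041). The H2 step was called without H1 replicate 3 (0.043). Most genes, 17207 or 74.3% of those tested, were likewise called at no single step.

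PCP027843, the AP2/ERF gene, had 0 counts in all H1 and H3 libraries, 0, 0 and 2 counts in the H2 libraries, and 17, 24 and 22 counts in the H4 libraries (1.84, 2.4 and 2.34 CPM). H4 averaged 2.19 ± 0.309 CPM and H2 0.078 ± 0.135 CPM (SD, n = 3 each). The gene was thus close to the limit of detection until H4, where all 3 libraries held it.

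Against the limit of 3 counts per library, PCP027843 was at least 6.41-fold higher in H4 than in H3 and at least 6.08-fold higher than in H1. The 63 counts of H4 against the 2 counts of H2 gave a ratio of 27.2 (95% counting interval 7.22 to 230). The edgeR adjusted p was 0.0031 for H4 relative to H3, 0.0049 relative to H2 and 0.0016 relative to H1. The gene passed the filter through its H4 libraries alone, so it had to be high there and these values are no support for the rise. The calls not called, not called and higher were those of 1925 genes, 8.31% of the genes tested. Without any one of the H4 libraries the gene fell below the filter, so leaving out H4 libraries gave no value for it. An exact permutation test, not adjusted, gave p = 0.018. With the other libraries at or near 0, every arrangement that keeps the 3 H4 libraries together ties with the observed one. The p of PCP027843 could therefore not be smaller, and it says only that these libraries stood above the rest.

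For the other genes the same exact permutation test gave p = 1.3e-04 for PCP002056 and 3.9e-04 for PCP011831 and for PCP014930. The F test of edgeR over the 4 stages gave adjusted p = 3.2e-08, 1.3e-04 and 0.0029 in that order. It gave 0.0011 for PCP027843, which passed the filter through its H4 libraries alone. The biological coefficient of variation (BCV), the part of the spread beyond counting noise, was taken from the edgeR fit. It was 15.7% for PCP002056, 15.2% for PCP011831, 12.8% for PCP014930 and 25.5% for PCP027843, and 73.1%, 71.7%, 63.6% and 87.9% of the genes tested had a lower one. The fit draws the BCV toward a trend with the level of a gene, and the shares are over genes of all levels. They therefore do not show that replicates of these genes differed more than those of genes at like levels.

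Several of these genes were lower in H4 replicate 1 than in the other H4 libraries. PCP002056 was lower in H4 replicate 1 than in both other H4 libraries, at 0.662 of their mean, as were PCP011831 (0.853) and PCP027843 (0.775), while PCP014930 was at 1.09. Over all genes tested this ratio had a median of 0.991, and 35.8% of the genes were lower in that library than in both others. Among the genes called higher in H4 than in H3, the median was 0.93 and the share 66.9%. Without H4 replicate 1 the log2 fold change of PCP002056 in H4 relative to H3 was 4.13 (edgeR adjusted p = 6.0e-08) and that of PCP011831 was 1.35 (edgeR adjusted p = 0.0078). Why such genes were lower in that library was not tested.

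The genes whose levels over the 12 libraries were most like each tested ERF gene were found by Pearson's r of log2(CPM + 1). The libraries fall into 4 stages, so r mostly reflects the stage means, and it takes no account of the size of a change. For PCP002056 they were PCP002272 (r = 0.980) and PCP022903 (r = 0.967). PCP022903 averaged 3.1, 23.7, 6.42 and 30.5 CPM from H1 to H4 (SD 0.413, 1.87, 1.1 and 4.09, n = 3 each), while PCP002272 averaged 135, 195, 144 and 238 CPM. Both had the stages in the same order as PCP002056, with smaller steps.

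For PCP011831 the nearest genes were PCP020991 (r = 0.977), with means of 49.6, 44.3, 50.2 and 61.9 CPM, and PCP018381 (r = 0.976), with 268, 244, 286 and 326 CPM. For PCP014930 they were PCP012705 (r = 0.970), with 4.7, 7.74, 9.81 and 12.7 CPM, and PCP003901 (r = 0.966), with 310, 336, 338 and 374 CPM. Both pairs shared the order of the stages with their ERF gene. For PCP027843 they were PCP032052 (r = 0.997), at 0, 0.195, 0 and 4.43 CPM, and PCP039809 (r = 0.993), at 38.7, 38.4, 40.3 and 201 CPM.

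**Figure D3:**
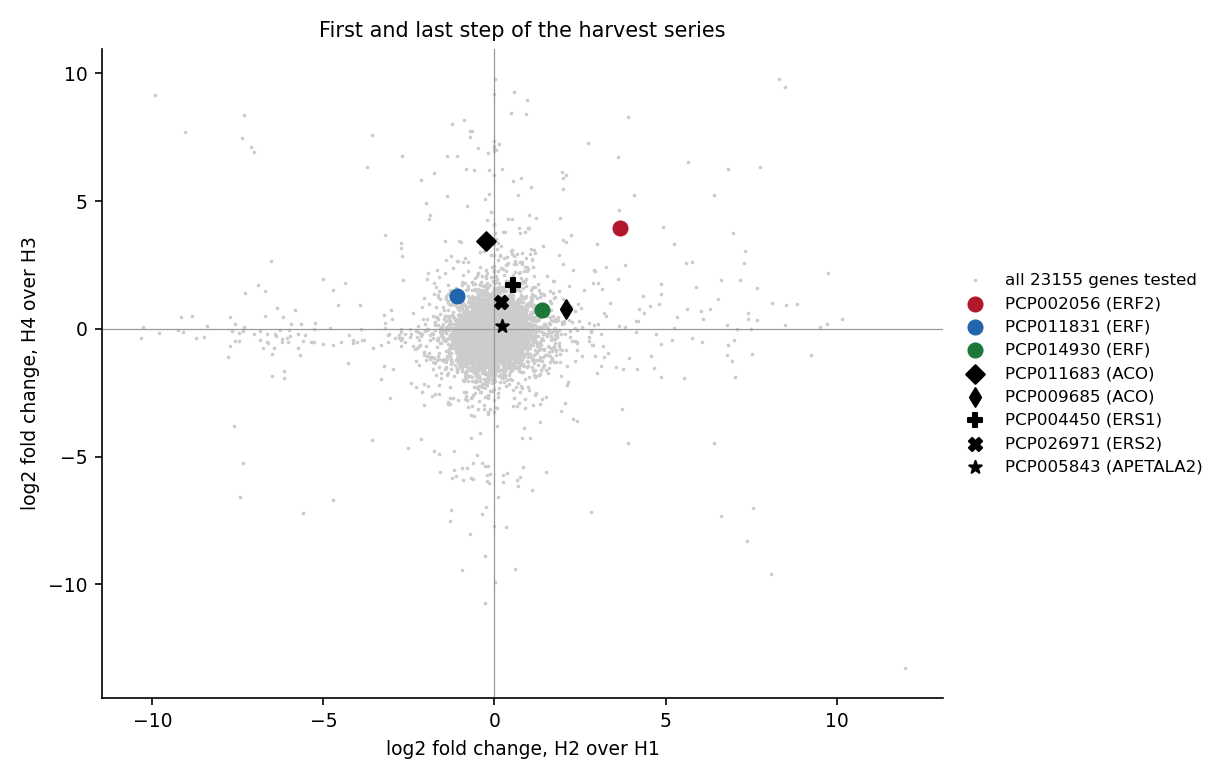
Log2 fold change in H4 relative to H3 (vertical axis) against that in H2 relative to H1 (horizontal axis), 2 steps that share no library, for all 23155 genes tested (grey), the 3 ERF genes with counts in every stage (colours) and 5 genes of the ethylene list (black). PCP002056 lies far to the upper right at 3.68 and 3.96, PCP011831 at -1.10 and 1.27, and the ACO gene PCP011683 at -0.26 and 3.45.

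The ERF genes were set beside a list of 9 genes that the study names, called the ethylene list here. It held 5 genes of ethylene biosynthesis, 2 receptors and 2 further factors of the AP2/ERF superfamily. Of these factors, the study names PCP005843 only as an APETALA2 transcription factor, not as an ethylene gene. PCP005843 is still counted in the numbers and medians of the list. The study chose these genes on the same libraries too, so their direction is not independent evidence. Of the 9 genes, 7 passed the filter. PCP013122, called higher in each comparison with H4, passed it only with the help of its H4 libraries. In H4 relative to H3, 3 of the 7 were called higher, beside 11.0% of all genes tested, with a median log2 fold change of 1.05 beside -0.004 over all genes. The counts called higher were 5 in H4 relative to H2 (14.7% of all genes), 7 in H4 relative to H1 (18.1%), 3 in H3 relative to H1 (6.79%), 1 in H2 relative to H1 (3.94%) and 0 in H3 relative to H2 (2.98%), and none was called lower in any comparison. The median log2 fold change was 1.48 in H4 relative to H2, beside -0.001 over all genes. It was 3.34 in H4 relative to H1, beside 0.003. PCP013122 and PCP022491 had at most 3 counts in every H1 library. With their H1 level set to 3 counts per library, the median in H4 relative to H1 was 2.30.

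Among the biosynthesis genes, the ACO gene PCP011683, whose product forms ethylene itself, had 98, 123 and 83 counts in the H1 libraries, 93, 89 and 67 in those of H2, 75, 105 and 116 in those of H3 and 770, 1456 and 1293 in those of H4. Its level was 122 ± 33.9 CPM in H4 and 11.2 ± 2.17 CPM in H3, a 10.9-fold rise (log2 fold change 3.45, edgeR adjusted p = 6.8e-07), and the first 3 stages overlapped. The gene therefore rose at the last step along with PCP002056, but showed no rise at H2, where its log2 difference to H1 was -0.26 (interval -0.82 to 0.29, edgeR adjusted p = 0.65). The ACS gene PCP013122 had 0, 0 and 0, then 0, 3 and 0, then 7, 7 and 10, and in H4 42, 42 and 57 counts. Its log2 fold change in H4 relative to H3 was 2.42 (edgeR adjusted p = 0.0073), but, like PCP027843, it passed the filter through its H4 libraries, with 1 other library at 1 CPM or more, so it had to be high there.

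The ACS gene PCP011500 stayed below the filter, with 0 counts in all H1 and H3 libraries, 3, 0 and 5 in H2 and 5, 22 and 22 in H4, which put H4 at least 4.95-fold above H3. The ACO gene PCP009685 was called at the first step, with 1.41 ± 0.318 CPM in H2 and 0.313 ± 0.274 CPM in H1 (log2 fold change 2.10, edgeR adjusted p = 0.044), a call that, among the fits without 1 library, was kept only without H4 replicate 1. It was not called at the last (0.78, edgeR adjusted p = 0.2). The third ACO gene, PCP022491, had a log2 difference of -0.07 between H4 and H3 (interval -1.62 to 1.48, edgeR adjusted p = 0.97).

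Of the receptors, ERS1 (PCP004450) rose 3.27-fold, with 51.4 ± 12.2 CPM in H4 and 15.7 ± 2.74 CPM in H3 (log2 fold change 1.71, edgeR adjusted p = 2.3e-05). ERS2 (PCP026971) had 4.78 ± 1.62 CPM in H4 and 2.3 ± 0.342 CPM in H3 (log2 difference 1.05, edgeR adjusted p = 0.059). Receptors of this kind hold the pathway off until they bind ethylene. In H4 replicate 1 ERS1 stood at 0.644, ERS2 at 0.51 and the ACO genes at 0.587 to 0.588 of the mean of the other H4 libraries, where PCP002056 was at 0.662. The ACS genes were at 0.885 (PCP013122, not below both others) and 0.238 (PCP011500), and PCP005843 was at 0.948.

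Further factors of the superfamily took other courses. PCP016390, an AP2 ethylene response factor below the filter, had 3, 11 and 9 counts in the H1 libraries, 4, 4 and 8 in the H2 libraries, 7, 0 and 0 in the H3 libraries and 0 in all H4 libraries. Against the limit of 3 counts per library the H1 mean was 2.87-fold above H4. H1 replicate 1 itself had just 3 counts, so this is no firm bound. Like PCP015040, PCP016390 had no count left in H4. PCP005843, named after APETALA2, a gene known in Arabidopsis for its part in flower development, had 1662 to 1838 counts in H4 and 1180 to 1306 in H1, a log2 fold change of 0.32 (edgeR adjusted p = 0.011), and was called at no single step. PCP030439, the RT-qPCR reference gene of the study, averaged 38 CPM in H4 and 43.6 CPM in H1 and was called lower there (log2 fold change -0.20, edgeR adjusted p = 0.03), and in none of the other comparisons.

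**Figure D4:**
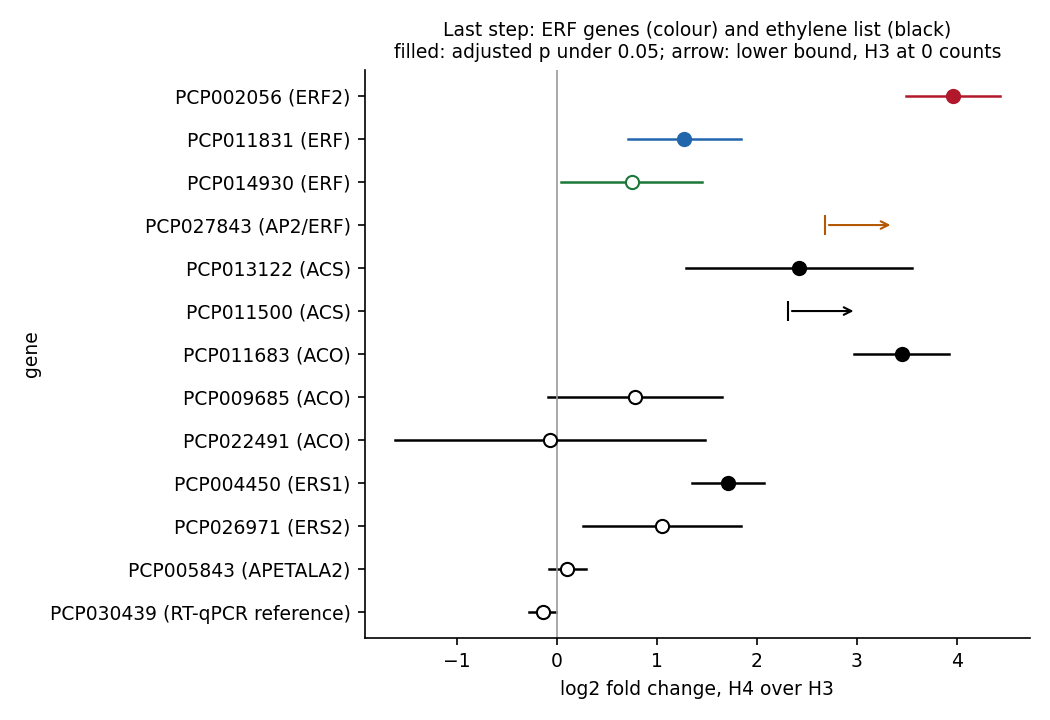
Log2 fold change in H4 relative to H3 for ERF genes (colours) and genes of the ethylene list with the RT-qPCR reference gene (black), with 95% intervals of the edgeR fit. The ERF gene PCP015040 and PCP016390 of the ethylene list are not drawn. Both were below the filter and had 0 counts in every H4 library. Filled points have an adjusted p under 0.05, and arrows start at the lower bound (3 counts per library) for genes with 0 counts in H3. PCP002056 at 3.96 and the ACO gene PCP011683 at 3.45 lie furthest to the right, the arrows of PCP027843 and PCP011500 start at 2.68 and 2.31, and the reference gene lies at -0.14.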

How the data were processed

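RNA from peeled fruit flesh was sequenced by the authors as single-end, non-directional libraries, so that antisense and overlapping genes cannot be told apart. Near-identical copies of a gene cannot be told apart by reads that match each of them, whatever the strand. The labels give a library kit, read length and sequencer other than the methods do. Per the labels and the methods, reads were aligned with HISAT2, quantified with StringTie and compared with DESeq2. Versions, the genome build and the step to counts are not given in the sources used here.

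The deposited table is named after FPKM but holds whole-number counts per gene, not normalized by the authors, for 45217 genes, of which 14378 were at 0 in all libraries. The 4 stage columns that the authors deposited hold the mean signal of the 3 libraries (largest gap 3.33e-05) and served as a check only.

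The counts were tested with edgeR 4.0.16 in R 4.3.3 (glmQLFit, glmQLFTest) on all 12 libraries, with TMM scaling, one term per stage, 6 comparisons of a later with an earlier stage, at least 1 CPM in at least 3 libraries, and Benjamini-Hochberg adjustment within a comparison over all 23155 genes tested, with a threshold of 0.05. The SE is the fold change over the square root of F and is approximate. The common BCV was 13%. For genes below the filter, ratios of summed counts have exact binomial intervals that cover counting error only. The permutation test (Python 3.11.15, numpy 2.4.6, scipy 1.17.1) used the between-stage sum of squares, which has no side. The scripts were tested on simulated data. Replicates of a stage differed by more than sampling noise. Over all genes the pairs with H1 replicate 2 differed most. Their chi-square per degree of freedom was 6.22 and 8.51, against 3.29 for the other pair of H1. Fruit of all replicates shared one orchard, and p-values measure the spread between these samples.

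Alternatives were no filter, a filter of 5 CPM, total-count and median-ratio scaling, DESeq2 1.42.0, limma-voom (limma 3.58.1), the 6 libraries of a comparison alone, a replicate block, adjustment over the 6 comparisons together, leaving out each library, and, for the permutation test, pseudocounts of 0.5 and 5. Named genes are the 5 ERF genes, the ethylene list, the reference gene and the 2 genes of highest Pearson r to each tested ERF gene. The ERF genes and the lists were chosen with earlier results of these data known. No sequence, position or length of the genes was used here, as 0 identifiers matched the reference names.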

Additional observations from a re-analysis of the deposited data

How the results depend on the processing

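All calls of PCP002056 were kept in its 21 alternatives, with log2 fold changes of 3.41 to 3.90 at the first step, -3.20 to -3.01 at the second and 3.80 to 4.13 at the last. The permutation tests and the F tests over the 4 stages kept their side of 0.05 in every alternative run. With a filter of 5 CPM only PCP002056 was left. The ERF genes called thus fell to 1 in H3 relative to H2, H4 relative to H3, H4 relative to H2 and H4 relative to H1, and to 0 in H3 relative to H1. Those of the ethylene list fell to 0 in H2 relative to H1 and in H3 relative to H1, 2 in H4 relative to H2 and 3 in H4 relative to H1. Of all genes, that filter gave 1648 in H2 relative to H1, 1222 in H3 relative to H2 and 4629 in H4 relative to H3. It gave 2642 in H3 relative to H1 and 5958 in H4 relative to H2. For H3 relative to H2, DESeq2, limma-voom and the 6 libraries alone called 1 ERF gene in place of 2, and for H3 relative to H1 DESeq2 and the 6 libraries alone called 0 in place of 1. The ethylene list had 0 genes called in H2 relative to H1 without a filter and with limma-voom. Adjustment over the 6 comparisons together gave 3 ERF genes in H2 relative to H1 (PCP011831 at edgeR adjusted p = 0.026 and PCP014930 at 0.027). Of all genes, 2292 in place of 1645 were called there. In H3 relative to H2 this adjustment gave 1 gene of the ethylene list and 1900 in place of 1236 genes of all. The 6 libraries alone gave 970 in place of 1645 genes in H2 relative to H1.

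Leaving out single libraries gave 940 to 1589 genes, 1 to 2 ERF genes and 0 to 2 ethylene genes in H2 relative to H1. In H3 relative to H2 it gave 687 to 1508 genes, 1 to 2 ERF genes and 0 to 1 ethylene genes. In H3 relative to H1 it gave 1938 to 2746 genes and 0 to 1 ERF genes. In H4 relative to H2 it gave 5095 to 7174 genes and 3 to 5 ethylene genes. Without any one H4 library PCP027843 had no value, and 2 ERF genes in place of 3 were called in H4 relative to H3. Both reversals were of differences that were not called, PCP011831 in H3 relative to H1 (-0.02 without H1 replicate 1, range -0.02 to 0.32) and PCP014930 in H3 relative to H2 (-0.03 without H2 replicate 3, range -0.03 to 0.34). In the fit without a filter PCP015040 was called in 1 comparison.

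With the replicate block, 1521 genes were called in H2 relative to H1, 1133 in H3 relative to H2 and 4558 in H4 relative to H3, the ethylene list had 0 called in H2 relative to H1, and no call of an ERF gene changed. The labels give replicate numbers only and do not say whether equal numbers pair the samples. With the stage means removed, same-numbered libraries had correlations of -0.04 to 0.24 (mean 0.050) over 18 pairs. Libraries of other numbers had -0.17 to 0.09 (mean -0.025) over 36 pairs, and 7 of 12 libraries correlated best with their own number. Whether the samples were paired was not tested, so the block is a hint from the data and not the design. Counts of at most 26 in any library limit PCP014930, PCP015040 and PCP027843.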
